A study of Mus musculus with 2 samples.

Results

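The 10 genes described here are the core of the mouse Hippo pathway: the upstream kinases Stk3 and Stk4, the kinases Lats1 and Lats2, the coactivators Yap1 and Wwtr1, and the DNA-binding factors Tead1, Tead2, Tead3 and Tead4. They were chosen by name, for their place in the pathway and not for a measured value, and all 10 were found among the 43346 mouse genes of the tables. Total RNA of more than 200 bases was sequenced from whole livers of embryos of the mouse strain B6NCrl at embryonic day 11.5, in 2 libraries that form 1 group with no genotype or treatment to compare. Replicate 1 was a pool of 109 embryos, replicate 2 was a pool of a size that the sources used here do not give, and both pools mixed males and females. Each library started from 10 ng of RNA, carried spiked-in control RNAs and was prepared by Smart-seq, per the protocol's name, a way to read small amounts of RNA.

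In the Hippo pathway, STK3 and STK4 (also called MST kinases) phosphorylate LATS1 and LATS2, which then phosphorylate the coactivators YAP1 and WWTR1 (also called TAZ). Phosphorylated coactivators are held in the cytoplasm or degraded, and unphosphorylated ones enter the nucleus and drive transcription with TEAD factors, which bind DNA but activate little on their own. In liver the pathway is known as a brake on organ growth, and in the embryo YAP1 activity is known to bear on the choice between hepatocyte and bile duct fates. Most of this control acts on the proteins, which RNA levels do not show.

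Replicate 1 held 34344230 estimated counts, 31721267 of them on mouse genes, and replicate 2 held 31477397, with 29750192 on mouse genes. They were counted as separate samples because the labels give them as separate biological replicates, and every spread given here is the spread between 2 pools. Their counts differed by more than counting noise over 16607 genes (chi-square per degree of freedom 10.3). All 6 markers of hepatoblasts, the fetal liver's epithelial cells, and all 6 markers of red blood cell precursors were detected in both libraries. Of 10 heart muscle markers, 10 were higher in replicate 1, where they summed to 299 TPM, against 131 TPM in replicate 2. Spike-ins took 14.6% of all TPM in replicate 1 and 11.1% in replicate 2. Levels are given in TPM, a share of all transcripts in a library, which corrects for transcript length and so allows genes to be compared, as mean ± SD (n = 2). Coordinates are on GRCm38. In bulk tissue, fewer cells of a type and less RNA per cell cannot be told apart.

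Transcripts of the pathway core were present throughout, and the most abundant were those of Tead2, Stk4 and Stk3. Called detected where both libraries reached 1 TPM, 9 of the 10 genes passed and Tead4 did not. Of 21474 protein-coding genes, 56.6% met that criterion. The median of the 10 genes was 6.72 TPM in replicate 1 and 6.60 TPM in replicate 2, against 2.82 and 2.87 TPM over all protein-coding genes and 16.2 and 17.3 TPM over those detected. No gene's TPM lay outside its deposited credibility interval.

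**Figure D1:**
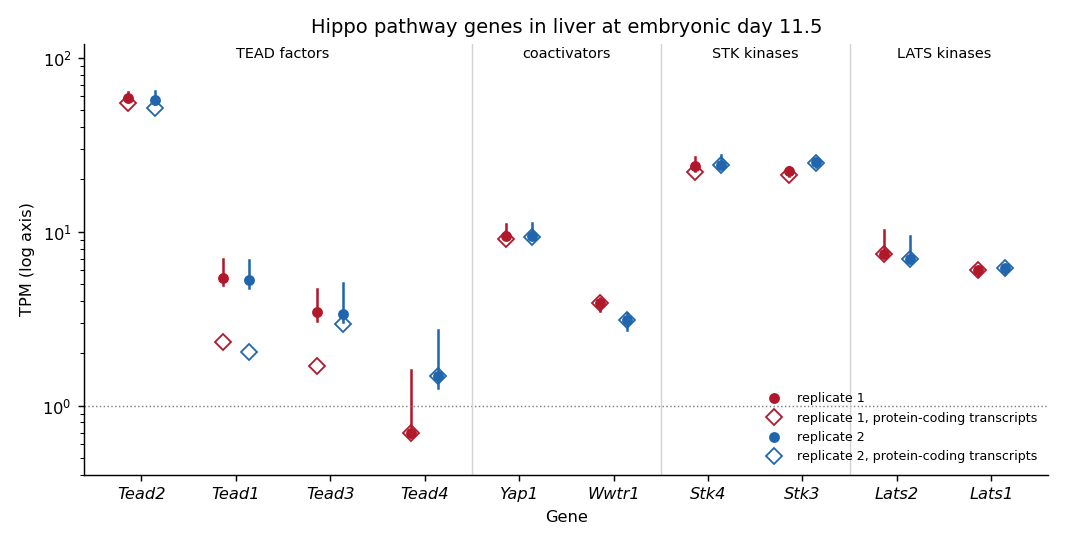
Level of each of the 10 genes in TPM (log axis) in replicate 1 (red) and replicate 2 (blue), grouped by role. Filled points are gene totals with vertical lines for the deposited credibility interval, open diamonds are the sum over protein-coding transcripts, and the dotted line marks 1 TPM. Tead2 lies highest, with 58.6 TPM in replicate 1 against 57.1 TPM in replicate 2, and Tead4 lies lowest, at 0.70 and 1.48 TPM.

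The upstream kinases were the most abundant kinase pair. Stk4 (ENSMUSG00000018209.11, chr2:164070322-164155524, plus strand) had 23.9 TPM in replicate 1 and 24.3 TPM in replicate 2, from 2826 and 2741 counts. Stk3 (ENSMUSG00000022329.10, chr15:34875496-35178921, minus strand) had 22.3 TPM in replicate 1 and 25.1 TPM in replicate 2, from 1554 and 1575 counts. The paralogs averaged 23.7 ± 1.97 TPM for Stk3 and 24.1 ± 0.304 TPM for Stk4. Which of them was higher changed between the libraries, and their credibility intervals overlapped in both. The log2 ratio of Stk3 to Stk4 was -0.03 ± 0.10, so no order could be given. Stk4 drew more reads than Stk3, and its main transcript, Stk4-201, is 5232 bases long, against 2914 bases for Stk3-201. Stk3-201 carried 94.99% of the gene's TPM in replicate 1 and 98.8% in replicate 2, and Stk4-201 carried 88.0% and 92.3% of its gene's.

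The minor Stk4 transcripts were assigned unevenly. The coding transcript Stk4-202 received 0 counts in replicate 1 and 140 in replicate 2. Its credibility intervals, up to 1.25 TPM in replicate 1 and from 0.586 TPM in replicate 2, overlapped, so a difference in this transcript was not detectable.

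The LATS kinases, which act directly on the coactivators, were present at lower levels. Lats2 (ENSMUSG00000021959.11, chr14:57689662-57758388, minus strand) had 7.44 TPM in replicate 1 and 6.98 TPM in replicate 2. Lats1 (ENSMUSG00000040021.8, chr10:7681214-7716460, plus strand) had 5.99 TPM in replicate 1 and 6.22 TPM in replicate 2. Lats2 was the higher in both libraries, with credibility intervals apart in both, but by little: the log2 ratio of Lats1 to Lats2 was -0.24 ± 0.10. On counts, which are not corrected for length, the order turned round, with 1094 and 994 counts for Lats1 against 891 and 778 for Lats2.

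The order of the LATS kinases was not seen between their main transcripts alone. Lats2-201 had 6.19 TPM in replicate 1 and 6.66 TPM in replicate 2. Lats1-202 had 5.92 TPM in replicate 1 and 6.19 TPM in replicate 2. The intervals of these transcripts overlapped in both libraries, from 5.55 to 6.43 TPM for Lats2-201 and from 5.44 to 6.14 TPM for Lats1-202 in replicate 1, and from 5.95 to 6.90 TPM and from 5.66 to 6.41 TPM in replicate 2. The remaining Lats2 level lay on shorter transcripts: Lats2-201 carried 83.3% of the gene's TPM in replicate 1 and 95.5% in replicate 2, while Lats1-202 carried 98.8% and 99.5% of its gene's. Lats2 also overlaps Gm49361 on the same strand, which in GENCODE M21 is a gene of its own and shares 56.5% of the 50-base words of Lats2-201. The deposited transcript tables list its transcript Gm49361-201 under Lats2, with 0 counts in both libraries and upper credibility bounds of 0.107 TPM (replicate 1) and 0.142 TPM (replicate 2).

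Of the coactivators, Yap1 was the more abundant. Yap1 (ENSMUSG00000053110.9, chr9:7931999-8004596, minus strand) had 9.41 TPM in replicate 1 and 9.47 TPM in replicate 2, from 942 and 787 counts. Wwtr1 (ENSMUSG00000027803.10, chr3:57455649-57575910, minus strand) had 3.89 TPM in replicate 1 and 3.11 TPM in replicate 2, from 462 and 322 counts. Yap1 exceeded Wwtr1 by 2.42-fold in replicate 1 and 3.05-fold in replicate 2. The log2 ratio was 1.41 ± 0.23 and the credibility intervals were apart in both libraries. Yap1 made up 70.8% of the summed TPM of the pair in replicate 1 and 75.3% in replicate 2. The pair together reached 13.3 and 12.6 TPM, close to the 13.4 and 13.2 TPM of the LATS kinases.

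LATS kinases recognise a serine that follows a histidine, any residue, an arginine and any further pair of residues. The coding sequences of the main transcripts were searched in frame for codons of that pattern. Yap1-202, with 472 codons, holds 5 such sites at serine codons 46, 94, 112, 149 and 366. Wwtr1-201, with 395 codons, holds 4 at codons 66, 89, 117 and 306. Lats1 and Lats2 held 1 each and the other 6 genes held none. The lines that follow give the sites known for binding of the cytoplasmic retention proteins, Yap1 codon 112 and Wwtr1 codon 89, and those at the start of the known degradation signals, Yap1 codon 366 and Wwtr1 codon 306. They come from GENCODE M21 transcripts, on the coding strand, with the serine codon in capitals.
Yap1 codon 112 (chromosome 9): ccacagcatgttcgagctcacTCCtctcca
Wwtr1 codon 89 (chromosome 3): gcgcagcacgtccgctcgcacTCGtcgccc
Yap1 codon 366 (chromosome 9): acctatcactctcgagatgagAGCacagac
Wwtr1 codon 306 (chromosome 3): ccctatcattcacgggagcagAGCacagac
Both kinds of site are thus encoded in the transcripts that carried most of Yap1 and Wwtr1 in this tissue. A match describes the letters and does not show that the protein was phosphorylated.

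Wwtr1 came almost wholly from Wwtr1-201, at 100% of TPM in replicate 1 and 98.1% in replicate 2. Yap1 was spread over more forms. Yap1-202 carried 68.2% of its TPM in replicate 1 and 72.7% in replicate 2, Yap1-201 carried 22.3% and 14.1%, and Yap1-210 carried 6.46% and 11.9%. The full transcripts, 4171 bases for Yap1-201 and 4115 for Yap1-202, differ outside this exon too, so the split of reads need not rest on it alone. Yap1-201 holds an exon of 48 bases that Yap1-202 lacks and that adds 16 codons from codon 314 (chr9:7950492-7950539, minus strand), shown here because the forms differ in it.
Yap1 exon of 48 bases: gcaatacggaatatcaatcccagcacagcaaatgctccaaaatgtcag
Coding transcripts with this exon held 29.7% of the relevant TPM in replicate 1 and 26.3% in replicate 2, and those without it held the larger share in both. The credibility intervals were wide, at 0.546 to 3.84 TPM for Yap1-201 and 4.22 to 7.76 TPM for Yap1-202 in replicate 1. They were 0.178 to 2.59 TPM and 5.24 to 7.81 TPM in replicate 2, so Yap1-201 and Yap1-202 were apart in both libraries. Yap1-210 also holds the exon. These intervals of single transcripts therefore do not settle the order of the summed forms with and without it.

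Among the TEAD factors, Tead2 dominated. Tead2 (ENSMUSG00000030796.11, chr7:45215753-45233644, plus strand) had 58.6 TPM in replicate 1 and 57.1 TPM in replicate 2, from 2847 and 2381 counts. It stood at the 89.2 percentile of protein-coding genes in replicate 1 and the 88.0 percentile in replicate 2. Of the summed TEAD level, 68.2 TPM in replicate 1 and 67.2 TPM in replicate 2, Tead2 made up 86.01% and 84.96%. The share depended on the measure, at 78.2 ± 0.542% of TEAD counts and 90.5 ± 2.22% of the TPM of protein-coding transcripts, and was the largest under each.

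The other TEAD genes were far lower. Tead1 (ENSMUSG00000055320.12, chr7:112679318-112906807, plus strand) had 5.41 TPM in replicate 1 and 5.25 TPM in replicate 2. Tead3 (ENSMUSG00000002249.13, chr17:28331671-28350817, minus strand) had 3.43 TPM in replicate 1 and 3.38 TPM in replicate 2. Tead4 (ENSMUSG00000030353.11, chr6:128224288-128300823, minus strand) had 0.70 TPM in replicate 1 and 1.48 TPM in replicate 2, from 43 and 70 counts. Tead2 exceeded Tead3 by 17.1-fold in replicate 1 and 16.9-fold in replicate 2. The log2 ratio of Tead1 to Tead2 was -3.42 ± 0.00279, where the SD is that of 2 values and understates the uncertainty. The ratio depended on the measure, at -2.47 on scaled counts not corrected for length and -4.54 on protein-coding transcripts alone. Tead1 and Tead3, at a log2 ratio of 0.63 ± 0.02, had credibility intervals apart in 1 library only and were not ordered. On protein-coding transcripts alone their mean log2 ratio was -0.034, but the order changed between the libraries. Tead1 was higher in replicate 1, at 2.33 against 1.70 TPM, and Tead3 in replicate 2, at 2.93 against 2.04 TPM. A Tead3 transcript absent from the later annotation, with 1.11 TPM in replicate 1 and 0 in replicate 2, was not counted as coding. Tead4 lay below each of the others, by 4.90-fold against Tead3 in replicate 1 and 2.28-fold in replicate 2.

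TEAD paralogs resemble each other, so reads could in part be shared. Main coding sequences were 72.5% to 76.4% identical among the 4 genes. The longest run shared by any pair of them was 59 bases, in Tead3 (coding base 1234 onward) and Tead4 (coding base 1120 onward), near the end of both coding sequences.
Run shared by Tead3 (chromosome 17) and Tead4: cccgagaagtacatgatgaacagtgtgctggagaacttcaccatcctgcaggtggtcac
It accounts for the only 50-base words that Tead3-201 and Tead4-201 share, 10 in number, or 0.417% of those of Tead3-201 and 0.330% of those of Tead4-201. Tead2-201 shared no 50-base word with a transcript of any other gene.

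Most of the Tead2 level came from transcripts that can encode the full TEA domain, the part that binds DNA. Tead2-201 carried 71.3% of the gene's TPM in replicate 1 and 69.5% in replicate 2, and Tead2-202 carried 21.1% and 19.6%. Tead2-202 lacks a stretch of 105 bases, 35 codons within the TEA domain from codon 43 of Tead2-201 (chr7:45217346-45217450, plus strand), printed here because the forms differ in whether they can encode this domain whole.
Tead2 stretch of 105 bases: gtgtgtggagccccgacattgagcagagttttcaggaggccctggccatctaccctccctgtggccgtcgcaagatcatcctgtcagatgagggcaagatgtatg
Coding transcripts with the stretch held 77.3% of the relevant TPM in replicate 1 and 78.3% in replicate 2 (77.8 ± 0.673%). In counts, Tead2-202 received 590 and 466. Its credibility interval was 7.94 to 16.7 TPM in replicate 1 and 8.03 to 17.1 TPM in replicate 2, so the form without the stretch was above 0 in both.

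The Tead1 level was mostly carried by transcripts that retain an intron and are not annotated as coding. Retained-intron transcripts made up 56.9% of Tead1 TPM in replicate 1 and 57.8% in replicate 2, but 9.78% and 10.8% of its counts. The leading one, Tead1-209, is 646 bases long and had 36.4% of TPM in replicate 1 and 31.1% in replicate 2, from 27.8 and 20.1 counts. The coding transcript Tead1-202 is 9480 bases long and had 31.1% and 29.7% of TPM, from 407 and 330 counts. Few reads on a short transcript thus set much of the Tead1 TPM. Counting protein-coding transcripts alone, Tead1 had 2.33 TPM in replicate 1 and 2.04 in replicate 2. By the mean it moved from rank 7 to rank 9 of the 10 genes, though it lay above Tead3 in replicate 1.

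**Figure D2:**
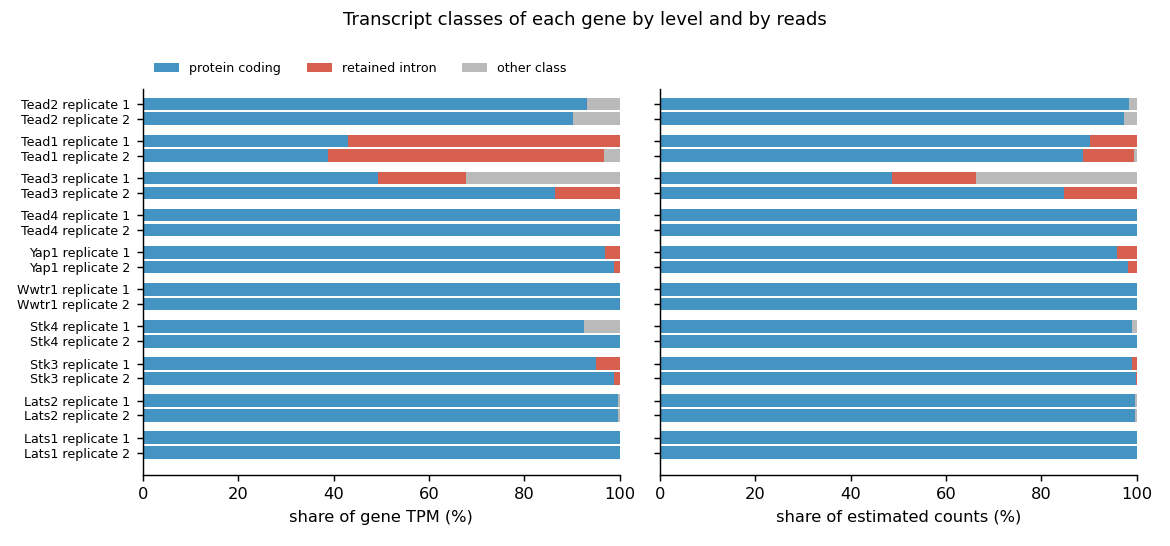
Share of each gene held by protein-coding (blue), retained-intron (red) and other (grey) transcripts, as percent of the gene's TPM (left panel) and of its estimated counts (right panel), with replicate 1 above replicate 2 for each gene. Retained-intron transcripts hold 56.9% and 57.8% of Tead1 TPM but 9.78% and 10.8% of its counts, while Wwtr1 and Lats1 are coding throughout.

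Tead1 also has an alternative exon within the TEA domain coding region that resembles its neighbour. The transcript Tead1-201 holds an exon of 63 bases (chr7:112841888-112841950, plus strand) that Tead1-202 lacks, and 89 bases further on both hold another exon of 63 bases (chr7:112842040-112842102). The exons are identical at 44 of 63 bases, or 69.8%. They are printed one above the other with the differing bases in capitals.
Tead1 exon in Tead1-201 and not in Tead1-202: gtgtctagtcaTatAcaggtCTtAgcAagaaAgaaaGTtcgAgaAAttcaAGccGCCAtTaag
Tead1 exon in both transcripts: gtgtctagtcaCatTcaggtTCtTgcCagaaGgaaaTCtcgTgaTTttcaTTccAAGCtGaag
Coding transcripts with the first of these exons held 11.6% of the relevant TPM in replicate 1 and 10.3% in replicate 2. The tables hold 4 coding transcripts with it, of which Tead1-201 alone was above 0, with 55.1 and 40.6 counts, whose credibility interval reached down to near 0 in both libraries. At this depth its presence was therefore not firmly measured.

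The transcripts of Tead3 were split differently in the libraries. Tead3-201 led in both, with 46.2% of TPM in replicate 1 and 51.1% in replicate 2. Tead3-206 had 0 counts in replicate 1 and 66.9 in replicate 2, while a transcript absent from the later annotation had 72.0 counts in replicate 1 and 0 in replicate 2. Their credibility intervals overlapped, so these near-exclusive assignments were not detectable as differences. Tead4 came from Tead4-201, at 55.6% and 46.2%, and Tead4-203, at 44.4% and 34.1%. For 10 of 10 genes the main transcript was the same in both libraries, and for 9 it was the same by TPM and by counts, with Tead1 the exception. No share over all genes stands beside these counts, so they describe the 10 genes only. Wwtr1 and Lats1 have just 2 listed transcripts each, which leaves little room to differ. For Tead1, Tead3 and Tead4 the credibility intervals of the leading transcript and the next overlapped in both libraries, so which of them led was not resolved.

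Ordered by mean TPM, the genes ran Tead2, Stk4, Stk3, Yap1, Lats2, Lats1, Tead1, Wwtr1, Tead3 and Tead4. Neighbours were called ordered where both libraries gave the same order, credibility intervals did not overlap and the libraries' ratios differed by less than their mean on the log2 scale. By that rule 5 of 9 neighbouring pairs were ordered. Stk4 and Stk3, Yap1 and Lats2, Lats1 and Tead1, and Wwtr1 and Tead3 were not, with intervals that overlapped in both libraries. Yap1 still lay above Lats2 in both, by 1.26-fold in replicate 1 and 1.36-fold in replicate 2. Lats1 lay above Tead1 by 1.11-fold and 1.18-fold, while the order of the remaining pairs changed between the libraries. Of the 9 pairs of paralogs, 7 were ordered, the exceptions being Stk3 with Stk4 and Tead1 with Tead3. No p-value is given, since the smallest that an exact sign-flip test allows with 2 libraries is 0.5.

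After TMM scaling of the counts, none of the 10 genes was 2-fold or more apart between the pools, although the interval of Tead4, which was 1.75-fold higher in replicate 2, reached past 2-fold. Of all genes tested, 16607 in number, 2.94% were 2-fold or more higher in replicate 1 and 1.46% in replicate 2. The interval of the log2 ratio, which covers counting error only, lay above 0 for 3 of the 10 genes, beside 17.9% of all genes, and below 0 for 2, beside 21.1%. The 3 higher in replicate 1 by that measure were Wwtr1, at a log2 ratio of replicate 1 to replicate 2 of 0.41 (95% exact binomial interval 0.20 to 0.62), Yap1 at 0.15 (0.01 to 0.29) and Tead2 at 0.15 (0.07 to 0.22). The 2 lower in replicate 1 were Stk3 at -0.13 (-0.23 to -0.03) and Tead4 at -0.81 (-1.40 to -0.25). When the spike-ins set the scale, the median of all genes shifted by -0.49 and the ratios of Wwtr1, Yap1 and Tead2 turned to -0.082, -0.34 and -0.34. Tead4 then stood at -1.29, past 2-fold, as did 6.02% of all genes. On the TPM scale that of Yap1 was -0.0091.

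**Figure D3:**
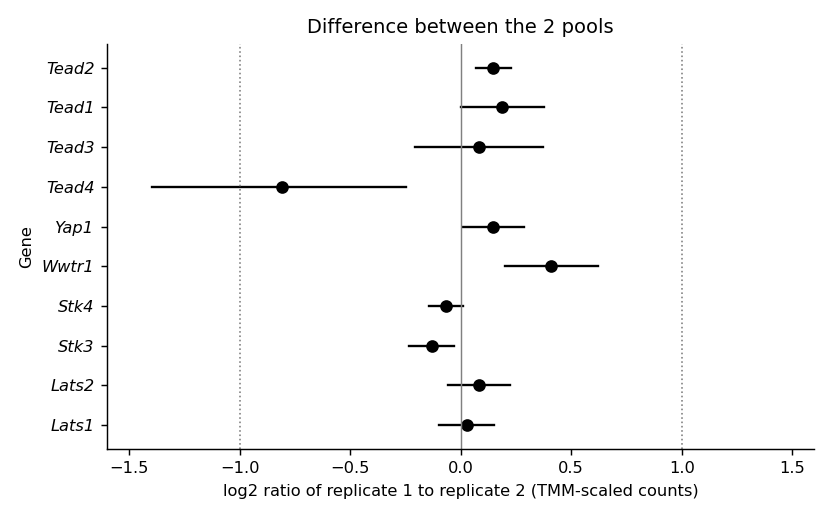
Log2 ratio of replicate 1 to replicate 2 of each gene on TMM-scaled counts (horizontal axis), with 95% exact binomial intervals that cover counting error only. Dotted lines mark 2-fold. Every point lies within them, with Tead4 at -0.81 and Wwtr1 at 0.41 the farthest from 0, and the interval of Tead4 reaches past 2-fold.

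Wwtr1 was higher in the pool with more heart muscle transcripts. The heart list had a median log2 ratio of 1.39, with 8 of 10 genes 2-fold or more higher in replicate 1. Markers of mesenchymal cells, with 616 TPM in replicate 1 and 598 in replicate 2 in sum, were higher in replicate 1 for 5 of 6 genes, with a median log2 ratio of 0.08. Mesothelial markers were higher in replicate 1 for 4 of 5 genes, with a median of 0.12, and hepatoblast markers for 1 of 6, with a median of -0.09. Endothelial markers were higher there for 2 of 6 genes (median -0.07) and those of red blood cell precursors for 2 of 6 (-0.09). For macrophage markers it was 3 of 5 genes (0.07) and for megakaryocyte markers 3 of 5 (0.004). The part of these cell types in the Wwtr1 difference was not tested.

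The wider pathway was present as well. Of 81 further pathway genes on 7 lists by role, 74 were detected, set beside the 56.6% of protein-coding genes. Kinase cofactors and scaffold were all 3 detected: Mob1a, which activates LATS kinases, had 60.1 TPM in replicate 1 and 68.4 TPM in replicate 2. Its paralog Mob1b had 13.6 and 14.7 TPM, and Sav1, the scaffold of the upstream kinases, had 6.72 and 7.61 TPM. Of upstream activators, 25 of 25 were detected, led by Taok3, a kinase of the upstream kinases, at 60.4 and 67.0 TPM. Nf2, a membrane scaffold and tumour suppressor, followed at 28.5 and 32.2 TPM, Rassf1, a partner of the STK kinases, at 28.2 and 25.1 TPM, and Map4k5, a kinase that can act on LATS, at 16.5 and 21.6 TPM.

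Inhibitors of the kinases were detected in 13 of 13 cases. Most abundant were Ppp2r1a, with 139 TPM in replicate 1 and 154 in replicate 2, Fgfr1op2 at 94.0 and 100.3 TPM, Strn4 at 58.8 and 66.6 TPM and Ppp2ca at 52.9 and 61.4 TPM. All 4 encode parts of the STRIPAK phosphatase complex, which acts on the STK kinases. Genes for retention and decay of the coactivators were detected in 10 of 10 cases. They were led by the Ywha adaptors that bind phosphorylated YAP1: Ywhae at 542 and 607 TPM, Ywhaq at 473 and 540 TPM, Ywhaz at 390 and 441 TPM and Ywhah at 275 and 306 TPM. The LATS relatives Stk38, at 62.7 and 64.6 TPM, and Stk38l, at 6.51 and 8.73 TPM, were both detected.

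Of the nuclear partners, 4 of 9 were detected. Vgll4, which competes with YAP1 for TEAD factors, had 23.1 TPM in replicate 1 and 21.6 TPM in replicate 2, above both coactivators. Runx1, a blood cell factor, had 16.9 and 14.8 TPM, Jun 15.8 and 13.2 TPM, and Zeb1, a repressor that can bind YAP1, 10.8 and 9.03 TPM. Under 1 TPM in both libraries were Vgll1, with 1 count in replicate 1 and 0 in replicate 2, Vgll2 at 0.67 and 0.85 TPM, Vgll3 at 0.26 and 0.25 TPM and Fosl1 at 0.31 and 0.41 TPM. For Vgll1 the 0 counts of replicate 2 allow up to 0.0911 TPM.

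A list of 22 genes that respond to YAP1 and WWTR1, known from human cell lines, was detected in 20 cases. Lats2 is itself on it. The highest were Asap1, with 72.0 TPM in replicate 1 and 71.1 in replicate 2, Igfbp3 at 32.1 and 36.4 TPM, the receptor kinase Axl at 25.2 and 27.8 TPM and the stress gene Gadd45a at 23.7 and 22.5 TPM. Foxf2 was under 1 TPM in both, at 0.53 and 0.94 TPM. The widely used targets Ccn1, Ccn2 and Ankrd1 fell outside the rule for naming genes and were chosen after their values were seen. Ccn1 had 12.5 and 11.4 TPM, Ccn2 1.94 and 1.17 TPM, and Ankrd1 4.32 and 1.73 TPM. Ankrd1 is known as a heart muscle gene too and was higher in the pool with more heart transcripts, whose part in it was not tested. The list's median was 4.46 TPM in replicate 1 and 4.67 TPM in replicate 2, above the 2.82 and 2.87 TPM of all protein-coding genes and below the 16.2 and 17.3 TPM of the detected ones. Many of these genes are also controlled by other pathways.

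**Figure D4:**
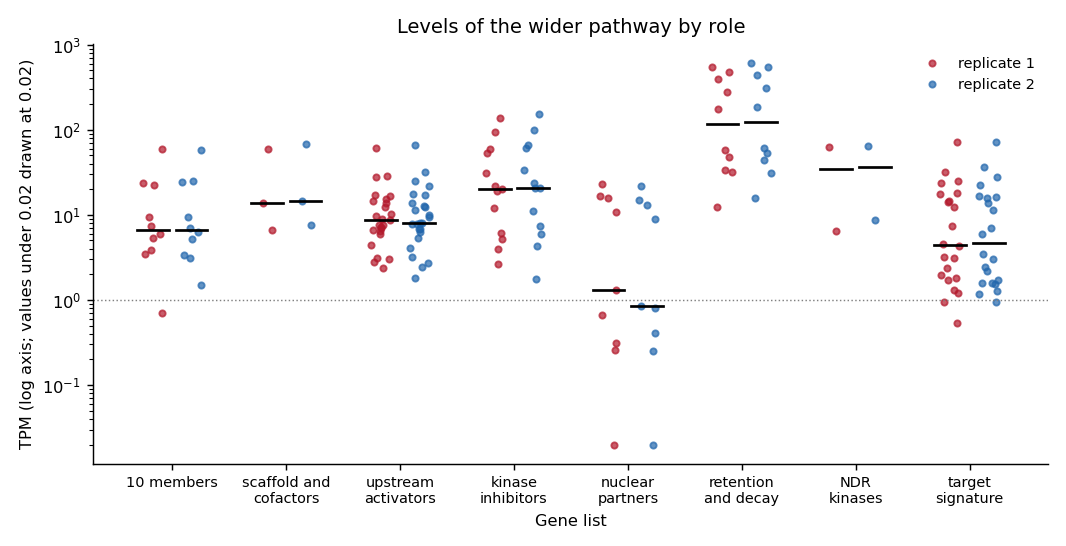
Level in TPM (log axis) of the 10 genes and of the genes of 7 pathway lists, in replicate 1 (red, left of each pair) and replicate 2 (blue, right), with a point per gene and a black line at the median. The dotted line marks 1 TPM. The retention and decay list has the highest median, 116 TPM in replicate 1 and 124 in replicate 2, and the nuclear partners the lowest, 1.32 and 0.85 TPM.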

How the data were processed

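The 10 genes, the gene lists and the tests were chosen with earlier results of these data known. The authors deposited, per the file headers, estimated counts, TPM, FPKM and the percent of each gene carried by each transcript, with credibility bounds of each TPM whose level is not given. Per the labels the assembly is mm10, and the deposited notes name GENCODE M4. For the aligner, quantifier, versions and strandedness: not given in the sources used here. Thus overlapping genes on opposite strands, such as Tead2 and Cd37 or Stk4 and Tomm34, may not be separated. Tead1, Tead4, Yap1, Wwtr1 and Lats2 also overlap genes on the opposite strand. On their own strand, Tead1 overlaps Gm44462 and Stk4 overlaps Gm11455. TPM is relative to all features, spike-ins included. Symbols, coordinates and transcripts came from GENCODE M21 on GRCm38, a later release, for 42462 of 43346 genes.

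Log2 ratios of TPM used a pseudocount of 0.1. Between libraries, counts (rounded for the tools) were scaled by TMM in edgeR 4.0.16 (R 4.3.3), with a pseudocount of 0.5 and a mean of at least 10 counts; DESeq2 1.42.0 size factors were an alternative. The step was tested on simulated data that held counting noise only. The 2 libraries differed by more than that, so the simulation does not show how the step behaves at their spread. Intervals are 95% exact binomial, cover counting error only and leave out variation between pools. They treat reads as independent. Reads had no molecular identifiers, so repeated copies of a molecule could not be told apart and the intervals may be too narrow. Other work used Python 3.11.15, pandas 2.3.3, scipy 1.17.1 and, for alignments, Biopython 1.88. Named were the 10 genes, the 4 highest of each list by mean TPM and list genes under 1 TPM in both libraries. Alternatives in unit, threshold, scaling and library were tried. With 1 group, no condition was tested.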

Additional observations from a re-analysis of the deposited data

How the results depend on the processing

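Counts of genes detected and of neighbours ordered stayed within 1.5 times their values under every alternative run. Detected were 7 to 10 of the 10 genes. Under each, 5 neighbouring pairs were ordered in the direction of the main ranking, though on CPM not the same 5. Lats1 and Lats2, which stood in the reverse order on CPM, are not among those. Except on CPM, each setting, coding transcripts included, was judged by the same deposited gene TPM intervals. That part of the rule could not change with the unit, so the steady count of 5 was partly fixed in advance. On CPM, which ignores length, the log2 ratio of Lats1 to Lats2 turned to 0.32, Stk3 to Stk4 became -0.83 and Tead1 to Tead3 1.21, and both of those pairs were then ordered. Without replicate 2 the ratio of Tead1 to Tead3 was also ordered (0.62 to 0.64 with either library left out). On coding transcripts only, Tead1 over Tead3 was -0.034 in the mean, of opposite sign in the libraries and not ordered. Tead1 over Tead4 was 1.02 there and no longer ordered. The share of Tead2 among TEAD genes was 84.0% on posterior means, 78.2% on counts and 90.5% on coding transcripts. Apart between libraries was 1 of the 10 genes at 1.5-fold, beside 11.0% of all genes, and 1 (Tead4, -1.29) at 2-fold with spike-in scaling, beside 6.02%. That scaling also reversed the ratios of Tead2 (-0.34), Yap1 (-0.34) and Wwtr1 (-0.082), and TPM reversed that of Yap1 (-0.0091). Spike-in scaling turned Tead1 (-0.30), Tead3 (-0.41), Lats1 (-0.46) and Lats2 (-0.41) negative too, and TPM turned Lats1 (-0.053). The main intervals of these 4 genes held 0. The causes were not tested. The coding-only and count-share alternatives, and the posterior-mean share of Tead2 among TEAD genes, were chosen after seeing the data. Among single levels, differences and transcript shares, 97 values moved by less than their error and 39 moved by more. Counted as reversed were 4, all of them ratios whose main interval excluded 0. No paired analysis was possible because both libraries belong to 1 group. Depth limits the precision of Tead4, with 43 and 70 counts, and of minor transcripts.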
